A study of Homo sapiens with 4 samples.

Results

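CL1-5 is an invasive subline of the human lung adenocarcinoma line CL1, and the arrays described here compare CL1-5 cells carrying a short hairpin against PSAT1 with CL1-5 cells carrying a non-silencing hairpin. The pair was taken as the array titled for the PSAT1 hairpin and the array titled for the non-silencing hairpin, which makes 2 of the 4 arrays of the series and 1 array per group. Both groups were stably transduced, were selected with puromycin for 2 weeks and are labelled as type II alveolar cells. The hairpin's target sequence and the number of clones or hairpins behind each culture are not given in the sources used here. The other arrays come from CL1-0, the less invasive line of the same origin, with an empty vector and with a PSAT1 vector. The labels name knockdown of PSAT1 as the purpose of the CL1-5 pair.

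PSAT1 is phosphoserine aminotransferase, the transaminase of the serine synthesis pathway. The pathway starts from a glycolytic intermediate, runs through PHGDH, PSAT1 and PSPH, and supplies serine for glycine, one-carbon units, nucleotides and glutathione. The aminotransferase step also turns glutamate into alpha-ketoglutarate, which feeds the TCA cycle. Cells that lack serine can respond through the transcription factor ATF4, which drives amino acid transporters, synthesis enzymes and tRNA synthetases.

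The values were MAS5 probe set intensities. A gene was read at its brightest probe set, and signals under a floor of 49.0, the median of all probe sets on the 4 arrays, were set to it. Genes above the floor on at least 1 array of the pair counted as measured, and this left 12819 of 19738 named genes. A gene is called higher or risen, or lower or fallen, where its arrays differ by at least 2-fold, unless another fold is given, and all other differences are given as values. A fold with 1 array at the floor is a lower bound and is written "at least". Signals joined by "and" are in the order non-silencing, PSAT1 hairpin, and those joined by "against" give the PSAT1 hairpin first. No replicate exists, so no test was possible, and what separates the arrays includes their culture, puromycin selection and labelling beside the hairpin. A lower signal can also come from fewer cells with the transcript or from less of it per cell, which cannot be told apart in RNA from a whole culture. With the non-silencing and the PSAT1 hairpin, 48.0% and 48.3% of probe sets were above the floor. The 3' over 5' control ratio, a measure of RNA integrity, was 1.09 and 1.10 for GAPDH and 1.34 and 1.38 for ACTB.

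The labelled cell type was checked against markers. Of 8 alveolar type II markers with a probe set, 6 were above the floor on both arrays at low signal, with SFTPC at 151 without and 149 with the PSAT1 hairpin and SFTPB at 106 and 121 in the same order. SFTPD and SLC34A2 were under the floor. The keratins KRT8 and KRT18 of simple epithelium were bright, at 1271 and 5308 on the non-silencing array, while CDH1, EPCAM and KRT19 were under the floor on both arrays. PTPRC for immune cells, CDH5 for endothelium and PDGFRA and DCN for fibroblasts were under the floor on both arrays. Other markers were above it on both, 3 of 6 for endothelium (PECAM1, CLDN5 and VWF), 3 of 9 for immune cells (CD3D, AIF1 and ITGAM) and 2 of 10 for fibroblasts (COL1A1 and THY1). The brightest of these was COL1A1, at 283 and 288. Summed marker signals without and with the PSAT1 hairpin were 642 and 729 for alveolar type II cells, 535 and 548 for fibroblasts, 311 and 328 for immune cells and 388 and 308 for endothelium. Among the type II markers LAMP3 had the largest difference, at 114 and 181.

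The targeted gene was read first. The brighter PSAT1 probe set read 1760.0 with the non-silencing hairpin and 143 with the PSAT1 hairpin, a 12.3-fold fall and the lowest ratio of all measured genes. The dimmer probe set read 384 and 107. Both are probe sets that can match more than 1 transcript, by the array maker's naming. The other enzymes around PSAT1 stayed close to their control values. The 11 measured serine and glycine enzymes had a median log2 ratio of -0.07 with no member at 2-fold, against a median of 0.02 over all measured genes. PHGDH, the first enzyme of the pathway, had a ratio of 0.34 and PSPH, the last, 0.04. The ratio farthest from 0 was that of GLDC, a subunit of the mitochondrial glycine cleavage system, at -0.62 (87.2 against 134).

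The consumers of serine and the stress response to its lack were also under 2-fold throughout. Folate cycle enzymes (13 measured) had a median of -0.01, methionine cycle and polyamine enzymes (11) -0.02, with AMD1 of polyamine synthesis at -0.49, and purine and pyrimidine synthesis enzymes (16) 0.11. Amino acid transporters (23) had a median of 0.07, with ratios from -0.51 for the taurine transporter SLC6A6 to 0.46 for the glutamate transporter SLC1A1. The 17 cytosolic tRNA synthetases had a median of 0.01, and EPRS1 was their extreme at -0.51. The 27 ATF4 genes had a median of -0.09, with 16 negative ratios, against 46.3% of all measured genes. Their largest was that of the lipoprotein receptor VLDLR, -0.97 (78.5 against 154). None of these lists held a 2-fold member.

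Over all measured genes the pair differed little. The median log2 ratio was 0.02, the robust SD, taken from the median absolute deviation, was 0.19, and the 1st and 99th percentiles were -0.79 and 0.71. With the hairpin 51 genes were higher (0.398% of those measured) and 54 were lower (0.421%), or 0.819% in either direction. At 1.5-fold the counts were 214 (1.67%) and 275 (2.15%). Of the 105 genes at 2-fold, 46 had several measured probe sets, and in 45 of them no probe set went the other way, the exception being NRG1. Just inside 2-fold lay MYO1D (at least 2.02-fold), TAP1 (2.02-fold) and MAGEA11 (2.001-fold) among the rises and DENND1A, COL13A1 and FNDC3B (2.008, 2.007 and 2.002-fold) among the falls. Just outside lay CD55 (1.99-fold), MAP7 and WWC1 (both 1.98-fold) on the high side and LOC100190986 (60.3 against 120.5), MKLN1 and SH3RF2 (both 1.99-fold) on the low side. The call was recomputed under 7 other settings of scaling, floor and probe set, and 53 of the 105 genes were under 2-fold in at least 1 of them, most often with a floor at the 65th percentile (called the higher floor below) or with the mean over a gene's probe sets (called the probe set mean). Another setting left out multi-transcript probe sets, which the array maker marks as matching several transcripts.

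**Figure D1:**
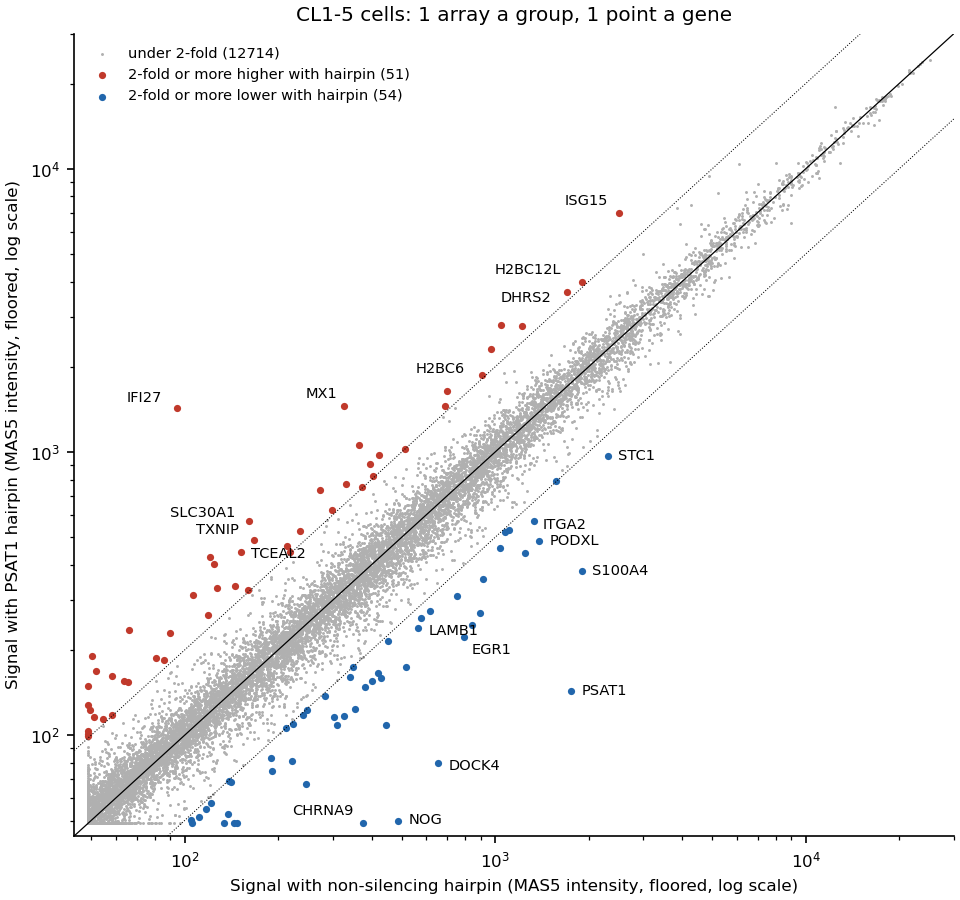
Each point is a gene, placed by its floored signal on the non-silencing array (horizontal, MAS5 intensity, log scale) and on the PSAT1 hairpin array (vertical, same scale). The solid line marks equal signal and the dotted lines 2-fold, the 51 red points are 2-fold or more higher and the 54 blue points 2-fold or more lower with the hairpin. PSAT1, NOG, DOCK4 and CHRNA9 lie farthest below the line and IFI27 and MX1 farthest above it.

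Genes were grouped in 90 lists, and 89 had enough measured members for a median. Of these medians 66 were within 0.1 of 0 on the log2 scale, and 58 lists held no member at 2-fold. The lists farthest above 0 were type I interferon genes, HLA genes, the TCEAL and BEX family and the PARP family, and those farthest below were the DOCK exchange factors, G2/M genes, laminins and MAPK feedback genes. The lists together held 2409 of the 12819 measured genes and 61 of the 105 genes at 2-fold. They were chosen with earlier results of these data known, so the latter count is not a result about the families.

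**Figure D2:**
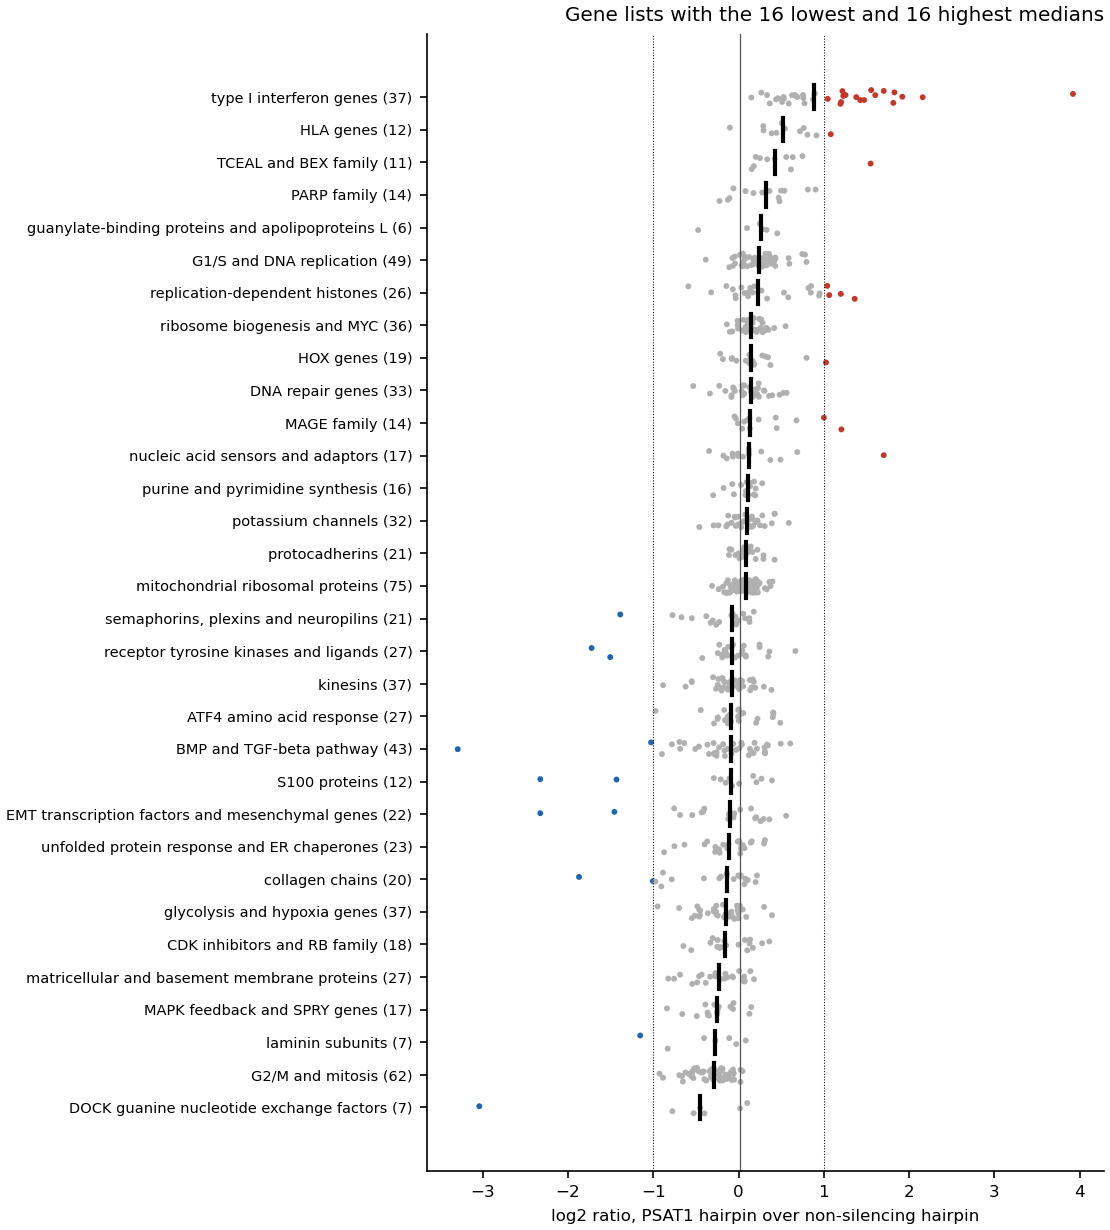
Log2 ratios of PSAT1 hairpin over non-silencing hairpin (horizontal axis) for the measured members of the 16 lists with the highest and the 16 with the lowest medians, among lists with 5 or more measured members. Each point is a gene, the number of genes is in parentheses, the black bars are medians and the dotted lines mark 2-fold. Red and blue points are genes 2-fold or more higher or lower. Medians run from 0.89 for type I interferon genes to -0.45 for DOCK exchange factors.

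The list of BMP and TGF-beta genes held 2 falls, NOG and INHBA, and the list of Wnt genes 1, WNT5B (0.421% of all measured genes fell). Noggin, NOG, which binds BMP ligands and blocks them, read 486 with the non-silencing hairpin and 49.6 with the PSAT1 hairpin. That is a 9.79-fold fall, to just above the floor. The activin subunit INHBA fell 2.04-fold (118 against 240.4). The sclerostin gene SOST, an antagonist of BMP and Wnt signals that is in no list, fell 2.61-fold (52.6 against 138) and the ligand WNT5B 2.08-fold (50.2 against 105). The 43 measured genes of the BMP and TGF-beta pathway had a median of -0.09 and no rise. Of them 7 were 1.5-fold or more lower, against 2.15% of all measured genes. TGFBR2, the type II TGF-beta receptor, had a ratio of -0.90 (318 against 591), the BMP antagonist GREM1 -0.78 (538 against 924) and the receptor ACVR2B -0.69. INHBA was under 2-fold with the probe set mean, with centring and with a floor at the 25th percentile, SOST and WNT5B with the higher floor, and WNT5B also with the probe set mean.

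In the list of receptor tyrosine kinases and their ligands 2 of 27 measured members fell, both of them ligands, and none rose. Of all measured genes 0.421% fell and 0.398% rose. NRG1, a ligand of ERBB receptors, read 891 and 270.0 at its brightest probe set, a 3.30-fold fall, but 1 of its 4 measured probe sets had a ratio of 0.01 and the probe set mean was -0.47. FGF1, the acidic fibroblast growth factor, read 309 and 109, a 2.84-fold fall, and its other probe sets fell from 142 to 41.2 and from 141 to 70.2. The list of these receptors and ligands had a median of -0.07 over 27 genes, and FGFR4 had its largest positive ratio, 0.67 (125 against 78.5). Ligands and receptors of cell guidance included EFNA5, an ephrin, at 166 against 421 (2.54-fold lower), and the semaphorin and VEGF co-receptor NRP2 at 116 against 303 (2.61-fold lower). All 7 NRP2 probe sets had negative ratios, and the brightest were 303 and 116, 248 and 94.5, and 188 and 48.0 without and with the PSAT1 hairpin. The plexin PLXND1 (-0.67) and the semaphorin SEMA4B (-0.77) were under 2-fold, and 15 of the 21 measured semaphorins, plexins and neuropilins had negative ratios, against 46.3% of all measured genes, with a median of -0.07, or -0.28 with the higher floor. EFNA5 and NRP2 were under 2-fold with the probe set mean.

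Several genes downstream of the MAPK cascade were lower or had negative ratios. EGR1, an immediate early transcription factor, read 791 and 222, a 3.57-fold fall that was of similar size at its 3 probe sets (log2 ratios -1.84, -1.85 and -1.57). DUSP6, a phosphatase that acts on ERK and is itself induced by ERK, read 326 and 117, 2.78-fold lower, and its other probe sets fell from 235 to 72.1 and from 278 to 118. FOS read 96.6 and 36.6, the latter under the floor, at least 1.97-fold. In the list of MAPK feedback and SPRY genes 15 of 17 ratios were negative, against 46.3% of all measured genes. The median of that list was -0.25 and no member was at 2-fold. TRIB1, a pseudokinase scaffold, had a ratio of -0.84 (466 against 834), the ERK inhibitor SPRY4 -0.66 (258 against 407) and HMGA2 -0.49. The wider lists moved less, with medians of -0.06 for 27 immediate early genes and -0.06 for 19 dual-specificity phosphatases. DUSP1 went the other way, with a ratio of 0.47 (3689 against 2668).

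Neutrophil chemokines fell while the T cell chemokine CCL5 rose. CXCL1 read 911 and 357 (2.56-fold lower) and CXCL2 755 and 309 (2.44-fold lower, but under 2-fold with the probe set mean). CXCL8 (-0.80, 2088 against 3645) and CXCL3 (-0.67) had ratios of the same sign, and these chemokine genes are similar in sequence. NFKBIZ, an inducible regulator of NF-kB, fell 2.07-fold (521 against 1079), NFKBIA, the NF-kB inhibitor, had a ratio of -0.55, and TNFAIP3, another feedback inhibitor, 0.47. PTX3, a secreted pattern recognition protein, fell 2.26-fold (457 against 1034). In contrast CCL5 read 159 and 326 (2.04-fold higher), IL1A had a ratio of 0.75 (1941 against 1153) and IL6 0.66 (956 against 604). The list of chemokines and interleukins had 24 measured members, 1 rise, 2 falls and a median of 0.02. Of all measured genes 0.398% rose and 0.421% fell.

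Chains of the basement membrane, the sheet of matrix under epithelia, had negative ratios at most measured members. LAMB1, the beta chain of several laminins, read 575 and 259 (2.22-fold lower), and its other probe set read 533 and 257. LAMC1, the gamma chain that pairs with it, read 2124 and 1195 (-0.83), while its other probe set, 1016 and 899, had a ratio of -0.18. Of the 7 measured laminins 6 had negative ratios, with LAMB2 at -0.40, LAMA5 at -0.27, LAMB3 at -0.11, LAMC3 at -0.03 and LAMA4 at 0.08, and the median was -0.27, or -0.83 without multi-transcript probe sets. The type IV collagen chains, which form the network of basement membranes, had ratios of -0.97 for COL4A5, -0.91 for COL4A2 (1139.7 against 2134) and -0.89 for COL4A1 (1092 against 2017). COL18A1, a basement membrane collagen, had -0.78, and its 2 probe sets had ratios of -0.78 and -0.77. COL6A3 of the microfibrillar collagen VI read 245 and 67.2, a 3.65-fold fall, and the transmembrane collagen COL13A1 fell 2.01-fold, which was under 2-fold with the probe set mean, with centring and with a floor at the 25th percentile. Across 20 measured collagen chains 13 ratios were negative, 6 were 1.5-fold or more lower and none was 1.5-fold or more higher. Their median was -0.14, or -0.41 with the higher floor. Of all measured genes 46.3% were negative, 2.15% were 1.5-fold or more lower and 1.67% 1.5-fold or more higher.

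Matrix proteins outside the collagens and laminins had mostly negative ratios under 2-fold. Among 27 matricellular and basement membrane proteins 20 ratios were negative and the median was -0.23, with fibrillin FBN2 at -0.82, fibronectin FN1 at -0.68 (5 of 5 measured probe sets negative), EFEMP2 at -0.54, fibulin FBLN1 at -0.48 and SPARC at -0.43. LOX, which crosslinks collagen, read 82.7 and 38.3, the latter under the floor. The matrix receptor ITGA2, the alpha subunit of a collagen-binding integrin, read 1338 and 570.2 (2.35-fold lower), and the other integrins with sizeable ratios were ITGB5 (-0.53), ITGAV (-0.49) and ITGB3 (-0.46). Integrins had 20 measured members, 12 of them negative and 4 positive, and a median of -0.05, or -0.33 with the floor at the 65th percentile. Of all measured genes 46.3% were negative and 52.7% positive. Proteases moved in no single direction, with medians of -0.01 for 14 matrix metalloproteinases and inhibitors and 0.03 for 19 ADAM and ADAMTS proteases. ADAM19 had a ratio of -0.95, MMP16 -0.73, MMP14 -0.52 and the plasminogen activators PLAU and PLAT -0.59 and 0.70.

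**Figure D3:**
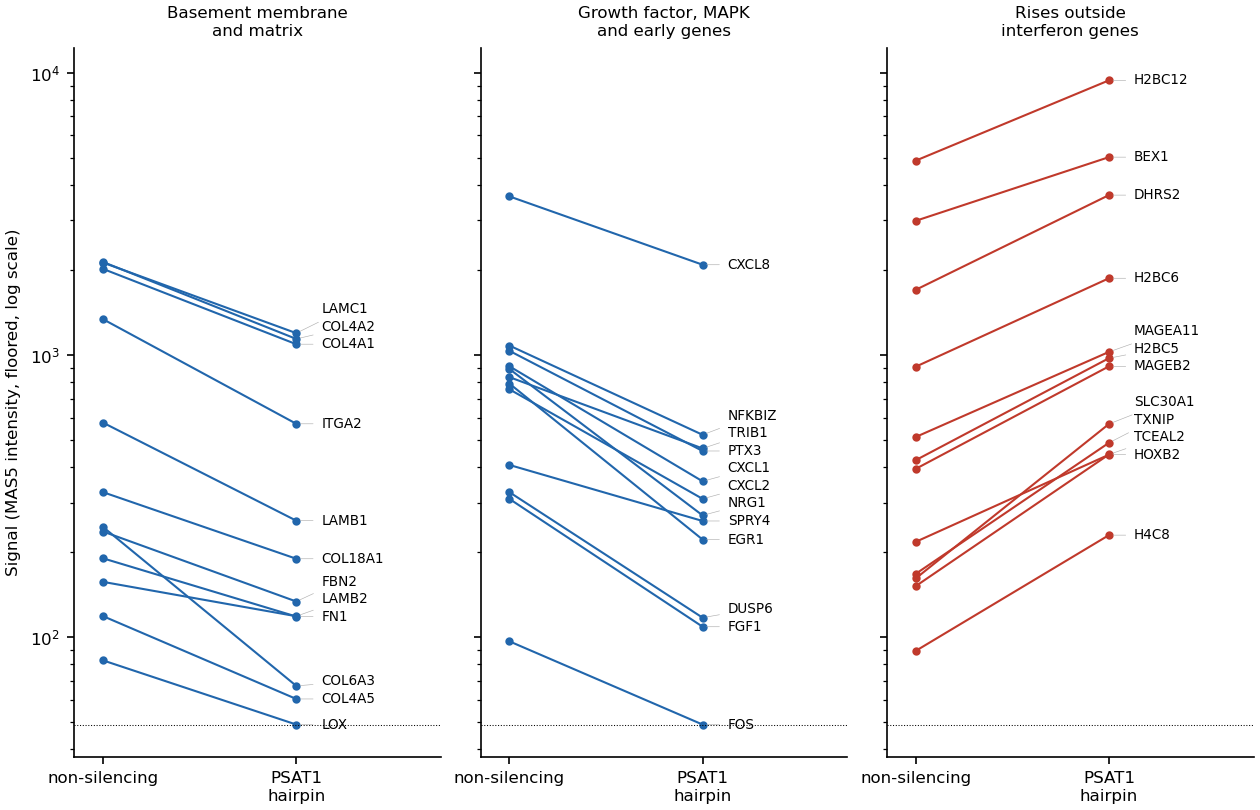
Signals of 12 genes a panel on the non-silencing and the PSAT1 hairpin array (vertical axis, MAS5 intensity on a log scale), 1 line a gene, with blue for a negative and red for a positive ratio and a dotted line at the floor of 49.0. The genes were chosen after their values were seen, and not all of them reach 2-fold. The matrix and the growth factor panels hold negative ratios, from CXCL8 at the top to FOS and LOX at the floor, and the right panel positive ratios of genes outside the interferon list.

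Cell movement and adhesion genes held further deep falls. DOCK4, an exchange factor that activates the GTPases RAC1 and RAP1, read 653 and 79.5 at its 1 measured probe set, 8.22-fold lower, but -0.76 on the log2 scale with the probe set mean, in which its other probe sets stand at the floor. The other measured DOCK genes with negative ratios were DOCK10 (42.3 against 83.8, the lower value under the floor), DOCK5 (-0.53), DOCK9 (-0.45) and DOCK1 (-0.40), and DOCK6 and DOCK11 had 0.02 and 0.10. DOCK1, DOCK5, DOCK6 and DOCK9 had probe sets of both signs, and the median of the 7 genes, -0.45, was -0.04 with the probe set mean. The GTPase RAC2 fell 2.09-fold (529.9 against 1106), under 2-fold with the probe set mean, and RND3, which antagonises RHOA, had a ratio of -0.87. The adhesion molecule NRCAM read 842 and 246 (3.42-fold lower) and ECSCR, an endothelial surface protein, 444 and 109 (4.07-fold lower). Of the endothelial markers CDH5, KDR and TEK were under the floor on both arrays, while PECAM1 read 149.98 and 105, CLDN5 105 and 84.4 and VWF 50.8 and 55.8, and their part in the ECSCR value was not tested. PODXL, an anti-adhesive sialomucin, read 1388 and 487 (2.85-fold lower).

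S100A4, a calcium-binding protein linked to cell motility, read 1904 and 380.4 (5.01-fold lower), and S100A3, its neighbour on chromosome 1, read 428 and 159 (2.69-fold lower). The 10 other measured S100 genes did not reach 1.5-fold. Of the transcription factors in the mesenchymal list TCF4 fell 2.74-fold (80.9 against 222), with all 7 of its probe sets negative but a probe set mean under 2-fold, ZEB1 had a ratio of -0.42 and SNAI2 0.56 (1921 against 1305). CD44 had -0.40 and the cadherin CDH2 -0.54 with probe sets of both signs. Cadherin, desmosome and tight junction genes (23 measured) had a median of -0.01 and the 12 measured keratins 0.03. In the Notch list HEY1 read 517 and 174 (2.97-fold lower) and HES4 299 and 626 (2.09-fold higher), and the 25 measured members had a median of -0.03. DNER, a ligand-like protein of the Notch pathway, was at least 2.95-fold lower (23.3 against 144), under 2-fold with the higher floor.

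The remaining falls were of genes with varied roles. CHRNA9, a nicotinic acetylcholine receptor subunit, read 376 and 43.5, at least 7.68-fold lower, while the 9 other measured subunits were under 1.5-fold. The glycoprotein hormone STC1 read 2309.7 and 969.7 (2.38-fold lower) and the secretory granule chaperone SCG5 354 and 124 (2.85-fold lower). EVA1A, a regulator of autophagy, fell 2.81-fold (442 against 1244), the adaptor SH2D2A 2.12-fold, the formylglycine-generating enzyme SUMF1 2.24-fold and the carboxylesterase CES1 2.02-fold. The hyaluronan-degrading protein CEMIP (2.57-fold), the microtubule protein NAV1 (2.57-fold), the Mediator kinase CDK19 (2.36-fold) and the anthrax toxin receptor ANTXR2 (2.05-fold) were lower but under 2-fold with the probe set mean. At low signal LAPTM5 (at least 3.01-fold), SIGLEC15 (at least 2.73-fold), ZG16B (at least 2.16-fold), KIAA1549L (2.56-fold), CNIH3 (2.28-fold), DIAPH2 (2.16-fold), LINC01963 (2.13-fold), the store-operated calcium channel gene ORAI3 (2.12-fold), GLMP (2.05-fold) and the irritant receptor TRPA1 (2.02-fold) were lower, and all 10 were under 2-fold with the higher floor. EPG5 (2.04-fold), DENND1A and FNDC3B, near 2-fold, were under it with centring and with the probe set mean, and CES1 with centring.

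Outside the interferon genes the largest rise was that of SLC30A1, the zinc exporter of the plasma membrane. It read 162 and 569 (3.52-fold higher) and 144 and 370.1 at its other probe set. SLC30A1 and the metallothioneins are known targets of MTF1, the transcription factor that senses zinc, which binds metal response elements. Only the form TGCACNC was searched here, and other forms of the element were not counted. The 9 measured metallothioneins did not share the rise. Their ratios ran from -0.01 for MT1E to 0.25 for MT3, with a median of 0.03, and MT2A read 11219 and 11189.5. Metallothionein genes share sequence, so values of single genes are uncertain. The other zinc transporters had a wide range, with the importer SLC39A10 at -0.80 (992 against 1724), the Golgi transporter SLC30A7 at -0.54, SLC30A4 at 0.20 and MTF1 itself at 0.16, and their median with SLC30A1 was -0.05 over 18 genes.

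The promoters of SLC30A1 and MT2A are shown because both carry the searched form of the metal response element while SLC30A1 was higher and MT2A was not. Both are RefSeq sequences of build GRCh38.p14, 5' to 3' on the strand of the gene, ending just before the annotated start, and capitals mark TGCACNC or its reverse complement. SLC30A1 is at chr1:211579162-211579361 (minus strand) and MT2A at chr16:56608384-56608583 (plus strand).
SLC30A1: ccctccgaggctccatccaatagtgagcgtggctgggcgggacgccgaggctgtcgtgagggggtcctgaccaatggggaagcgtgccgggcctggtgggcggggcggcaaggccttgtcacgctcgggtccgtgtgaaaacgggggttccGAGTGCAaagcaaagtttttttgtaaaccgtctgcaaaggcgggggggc
MT2A: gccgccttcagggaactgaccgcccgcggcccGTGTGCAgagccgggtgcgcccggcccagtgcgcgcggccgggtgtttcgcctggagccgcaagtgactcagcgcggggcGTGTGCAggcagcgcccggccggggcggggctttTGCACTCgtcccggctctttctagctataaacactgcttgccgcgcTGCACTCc
The searched form TGCACNC occurs 1 time in the SLC30A1 window and 4 times in that of MT2A, and other forms of the element were not counted. In the 250 bases before the start, 9.87% of 35116 promoters and 4 of the 4 matched metallothioneins have at least 1 match of this form.

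TXNIP, an arrestin domain protein that binds thioredoxin and limits glucose uptake, read 168 and 488 at its brightest probe set (2.91-fold higher) and went from 151 to 264 and from 114 to 216 at the others, which is under 2-fold. It was also under 2-fold with a floor at the 25th percentile, where another probe set represents it. The other 14 measured thioredoxins, peroxiredoxins and arrestin domain genes were under 1.5-fold, and the median of the list was -0.03. Apolipoprotein E, APOE, read 119 and 266 (2.23-fold higher) but was under 2-fold with the probe set mean and with the floor and probe set taken from the CL1-5 arrays. The glycosylated surface protein CD24 read 52.0 and 168 (3.23-fold higher), near the floor on the non-silencing array and under 2-fold with the higher floor and the probe set mean.

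The TCEAL and BEX genes, a family of small proteins clustered on the X chromosome, had positive ratios at all 11 measured members, against 52.7% of all measured genes. TCEAL2 read 152 and 444 (2.93-fold higher). The next were BEX1 with 0.75 (5023 against 2988), TCEAL1 with 0.64, BEX5 with 0.62, BEX2 with 0.56 and TCEAL3 with 0.42, and the lowest was TCEAL8 with 0.15. The median of the family was 0.42. Counting every measured gene between the outermost members, 13 genes of this stretch of X had a median of 0.34 with 12 positive, and 387 other X genes a median of 0.04. The 13 include all 11 family members. ARMCX5, which lies among the family genes, had 0.32 and GPRASP3 -0.10. The family lies within wider runs of measured genes. The run of 15 measured genes from BEX2 to TBC1D8B had 14 positive ratios, 1 negative and a median of 0.25. That from TRMT2B to TCEAL8 had 12 positive, 3 negative and a median of 0.27. All 11 family members lie in these runs, so the counts and medians include theirs. The other genes of the runs were not summarised alone.

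The MAGE gene family held 2 rises among 14 measured genes, where 0.398% of all measured genes rose. MAGEB2 read 395 and 911 (2.31-fold higher) and MAGEA11 512 and 1025 (log2 ratio 1.001). MAGEE1 had 0.68, NDN 0.45 and MAGED1 0.44, and MAGEA1, MAGEA4, MAGEA6, MAGEA10 and MAGEA12 had ratios between -0.03 and 0.13. HOXB2, a patterning transcription factor, read 218 and 443 (2.04-fold higher), and its neighbours HOXB3, HOXB4, HOXB5, HOXB6 and HOXB9 had 0.37, 0.14, -0.08, 0.35 and 0.80. Of 19 measured HOX genes 14 were positive, against 52.7% of all measured genes, and the median was 0.15.

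Interferon-induced genes gave 17 of the 51 rises, so 34 lay outside the list. All 37 measured members had positive ratios, against 52.7% of all measured genes, with a median of 0.89. Of them 17 were 2-fold or more higher, against 0.398% of all measured genes. Beside IFI27 (1431 against 94.4) and MX1 (1452 against 325), the dsRNA-sensing OAS2 and OAS1 rose 3.78-fold and 2.30-fold, the ubiquitin-like ISG15 2.78-fold and its protease USP18 2.60-fold, the translation inhibitors IFIT1, IFIT2 and IFIT3 2.39-fold, 2.33-fold and 2.34-fold, and IFI6 2.69-fold. BST2, which tethers viruses to the cell, was at least 3.04-fold higher, the scramblase PLSCR1 2.29-fold and MX2 at least 2.06-fold. OAS2 and BST2 were under 2-fold with the higher floor, and IFIT2 and PLSCR1 with the probe set mean. Beside them stood genes of antigen presentation, which interferons also induce. Of 12 measured HLA genes 11 were positive with a median of 0.53 (0.29 with a floor at the 25th percentile and 0.31 without multi-transcript probe sets), and 1 rose, HLA-DPA1, a class II chain near the floor (104 against 41.2, at least 2.12-fold higher, under 2-fold with the higher floor and the probe set mean). The class I genes HLA-B, HLA-C, HLA-F and HLA-E had 0.91, 0.81, 0.72 and 0.51, and HLA-DOA had -0.10. HLA genes share sequence, and the values of single genes are uncertain. The immunoproteasome subunits PSMB8 (1058 against 365, 2.90-fold higher) and PSMB9 (736 against 274, 2.69-fold higher) rose with the peptide transporter TAP1, while the 30 subunits of the constitutive proteasome had a median of 0.01.

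Lists of genes with related roles had smaller medians than the type I interferon genes. In the PARP family the pair PARP9 and DTX3L, which act as a complex, had ratios of 0.90 (356 against 190.2) and 0.81 (712 against 405), PARP12 and PARP14 had 0.54 and 0.50, and the median of the 14 measured members was 0.32, or 0.14 with the probe set mean. Of the nucleic acid sensors IFIH1, which recognises double-stranded RNA and is also counted in the type I interferon list, rose 3.25-fold (403 against 124), under 2-fold with the probe set mean, and RIGI had 0.69. SAMHD1 had 0.49, and the median of the 17 sensors and adaptors was 0.12. Interferon receptors and JAK-STAT genes had a median of 0.04 over 24 genes and none at 2-fold, with IRF9 at 0.53, IRF8 at 0.53, SOCS3 at 0.64 and STAT3 at -0.55. The 43 measured TRIM genes had a median of 0.07. Outside the lists CASP4, an inflammatory caspase, was 2.02-fold higher (118 against 58.3) and the lysosomal protease CTSC 2.31-fold (187 against 81.2), both under 2-fold with the higher floor and the probe set mean.

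The remaining rises shared no list with one another. DHRS2, a mitochondrial reductase, read 1702 and 3685 (2.16-fold higher), the hexokinase HKDC1 692 and 1459.8 (2.11-fold, under 2-fold with the probe set mean) and the orphan receptor GPR27 405 and 823 (2.03-fold, likewise). The secreted epidermal protein DMKN rose 2.24-fold (527 against 235) and the membrane protein TMEM98 2.18-fold (465 against 214). At low signal the transcription factor ZNF711 (at least 2.61-fold), the GABA receptor subunit GABRA5 (2.78-fold), RNF175 (2.46-fold), WASIR2 (2.45-fold), the carnitine transporter SLC16A9 (2.35-fold), LSAMP-AS1 (2.26-fold) and the neuropeptide NMU (2.15-fold) were higher, and all 7 were under 2-fold with the higher floor. The class I myosin MYO1D was higher too, under 2-fold with the probe set mean.

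Cell cycle genes had ratios of opposite sign by phase, all under 2-fold. Of 49 measured G1/S and replication genes 43 had positive ratios, against 52.7% of all measured genes, with a median of 0.24, and of 62 genes of G2/M and mitosis 59 were negative, against 46.3%, with a median of -0.29. The G1/S genes at 1.5-fold or more were the cyclins CCNE1 (774 against 446) and CCNE2 (955 against 569), the repressor E2F8 (819.6 against 478), and the licensing and initiation factors MCM10 (1109.7 against 734) and CDT1 (1040.2 against 692). E2F7, RRM1, POLA2, CCND1, TYMS and POLA1 went against the list, with E2F7 the farthest at -0.38. The G2/M genes at 1.5-fold or more lower were the kinetochore protein CENPF (866 against 1646), the kinesins KIF14 (1039.8 against 1919.8) and KIF20B (484 against 744), the spindle protein ASPM (959.6 against 1553), the cohesin protector SGO1 (56.9 against 90.0) and the proliferation marker MKI67 (674 against 1059.9). BIRC5, FOXM1 and MAD2L1 went against the list, at 0.05, 0.02 and 0.02. The CDK inhibitors and RB family had a median of -0.15 over 18 genes, with CCNG2 at -0.65, and the 33 DNA repair genes 0.15, with CHEK1 at 0.53 and FANCL at 0.56.

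Histone genes that are transcribed in S phase followed the G1/S genes in sign, and the H2B genes stood at the top. The 26 measured replication-dependent histones had a median of 0.23, 20 positive ratios and 4 rises. Of all measured genes 52.7% were positive and 0.398% rose. Mature mRNAs of these histones mostly lack a poly(A) tail, and the genes share sequence, so single values are uncertain. H2BC5 read 424 and 974 (2.30-fold higher), H2BC6 909 and 1869.6 (2.06-fold higher), H2BC11 54.4 and 114 (2.09-fold, under 2-fold with the higher floor) and H4C8 89.4 and 229.9 (2.57-fold higher). The brightest, H2BC12, had a ratio of 0.94 (9399 against 4883) and H2BC9 0.85 (794 against 439.8). All 9 measured H2B genes were positive with a median of 0.85, and 7 of them were 1.5-fold or more higher, while the 17 other histones had a median of 0.11 and 11 positive ratios. H2BC12L, an H2B copy outside the list, rose 2.09-fold (3982 against 1905). The linker histone H1-2 had 0.95 (1433 against 741) and H3C7 went the other way with -0.59. The 9 measured variant histones, which are made through the whole cycle, had a median of -0.04.

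**Figure D4:**
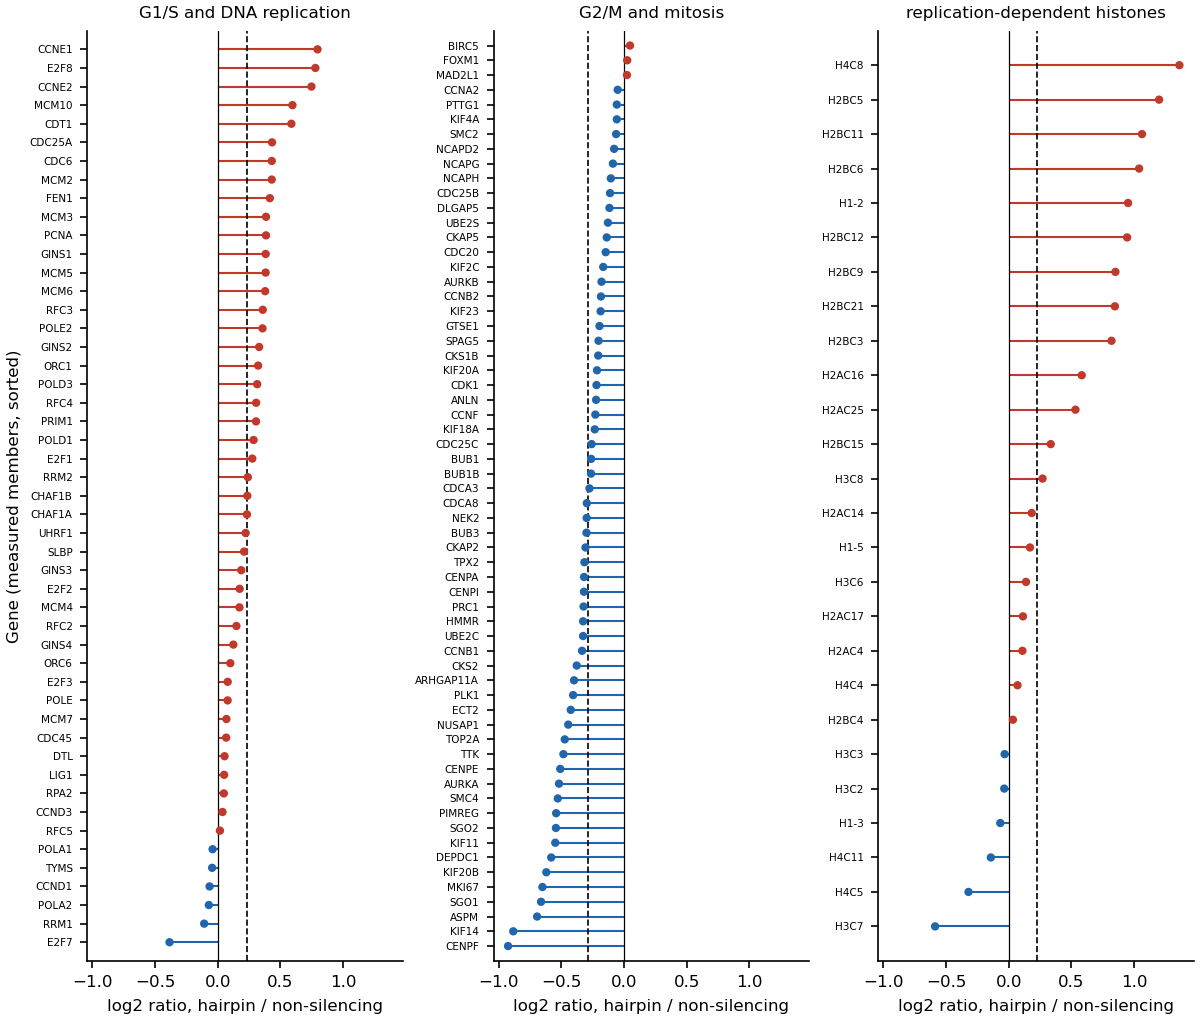
Log2 ratios of PSAT1 hairpin over non-silencing hairpin (horizontal axis) of every measured member of the G1/S and replication list (49 genes), the G2/M and mitosis list (62) and the replication-dependent histones (26), sorted within each panel. Red is a positive and blue a negative ratio, and dashed lines are the medians of 0.24, -0.29 and 0.23. The left panel has 43 positive and the middle panel 59 negative ratios, and H2B genes fill most of the top of the right panel.

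The promoters of 4 H2B genes and of 1 gene from each cell cycle list are shown, since these groups differ in known regulatory letters. The sequences are from RefSeq, build GRCh38.p14, 5' to 3' on the strand of the gene. They end just before the annotated start. Capitals mark, on both strands, the octamer ATTTGCAT and the CCAAT box in the H2B genes, the E2F element TTTCCCGC in CDT1, and the cell cycle homology region TTTGAA and CCAAT in MKI67. Positions are H2BC6 chr6:26183601-26183760 (plus strand), H2BC9 chr6:26251454-26251613 (plus), H2BC11 chr6:27132796-27132955 (minus), H2BC12 chr6:27146859-27147018 (minus), CDT1 chr16:88803669-88803788 (plus) and MKI67 chr10:128126424-128126543 (minus).
H2BC6: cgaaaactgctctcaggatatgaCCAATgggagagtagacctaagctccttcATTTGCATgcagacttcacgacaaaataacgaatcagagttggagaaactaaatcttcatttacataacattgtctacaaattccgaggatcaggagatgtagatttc
H2BC9: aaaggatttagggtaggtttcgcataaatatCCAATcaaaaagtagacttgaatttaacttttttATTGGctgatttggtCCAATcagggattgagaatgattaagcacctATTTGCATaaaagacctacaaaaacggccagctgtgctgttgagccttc
H2BC11: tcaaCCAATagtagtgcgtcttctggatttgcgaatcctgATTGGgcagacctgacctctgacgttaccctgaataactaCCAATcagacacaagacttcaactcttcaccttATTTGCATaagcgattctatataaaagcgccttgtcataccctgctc
H2BC12: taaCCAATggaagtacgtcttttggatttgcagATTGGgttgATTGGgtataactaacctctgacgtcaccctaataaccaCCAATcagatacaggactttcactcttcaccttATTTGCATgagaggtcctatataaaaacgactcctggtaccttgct
CDT1: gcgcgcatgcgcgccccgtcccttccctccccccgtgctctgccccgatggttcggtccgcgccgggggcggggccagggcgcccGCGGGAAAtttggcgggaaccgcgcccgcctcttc
MKI67: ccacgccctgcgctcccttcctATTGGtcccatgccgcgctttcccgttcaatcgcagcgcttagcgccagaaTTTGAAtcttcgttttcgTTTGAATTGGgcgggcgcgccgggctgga
In MKI67 the last TTTGAA overlaps a reversed CCAAT. In the 250 bases before the start the octamer is in 7 of the 9 measured H2B genes and 4 of the 17 other histones, and in 1.63% of all 35116 promoters. CCAAT is in 9 of the 9 H2B genes, 13 of the 17 other histones, 43 of the 54 G2/M genes with a promoter sequence, 25 of the 41 such G1/S genes and 32.0% of all promoters. TTTGAA is in 29 of the 54 G2/M genes, 4 of the 9 H2B genes, 8 of the 17 other histones, 2 of the 41 G1/S genes and 13.3% of all promoters. TTTCCCGC is in 10 of the 41 G1/S genes, 1 of the 54 G2/M genes and 1.39% of all promoters. Only the exact letters named were searched, so other forms of the E2F element, in CDT1 too, were neither counted nor marked. These are matches of letters and do not show that a factor is bound.

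Metabolic and stress lists had small medians. The glycolysis and hypoxia list had 31 negative ratios among 37 genes, against 46.3% of all measured genes, and a median of -0.15. The kinase PDK3, which restrains pyruvate entry into mitochondria, had -0.95 (407 against 786) and the hypoxia gene NDRG1 -0.70. The collagen prolyl hydroxylase P4HA1 had -0.55, ALDOC -0.51 and ENO2 -0.48. The unfolded protein response list had a median of -0.12 over 23 genes, with the sensor ATF6 at -0.87 (290.4 against 532, 4 of 4 probe sets negative), EDEM1 of misfolded protein disposal at -0.75 and PDIA4 at -0.63. Cytosolic heat shock genes (17) had a median of 0.04. The NRF2 and glutathione list had a median of 0.01 over 25 genes, in which the reductases of the AKR1C cluster stood apart. AKR1C1 fell 2.10-fold (215 against 452, under 2-fold with the probe set mean), AKR1C2 had -0.98 (157 against 310.1) and AKR1C3 read 92.2 and 41.7, the latter under the floor, and these genes share sequence. The TCA cycle (22 genes, median -0.03), transaminases and glutamine enzymes (14, -0.05), cholesterol and fatty acid synthesis (26, 0.04), p53 targets (26, -0.03), BCL2 genes (19, -0.04) and autophagy and lysosome genes (31, 0.01) held no 2-fold member.

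Ribosomal protein, constitutive proteasome and nuclear-encoded respiratory chain genes had no member at 1.5-fold. Transcripts of the mitochondrial genome are in none of these lists and are given under the other observations. The 55 cytosolic ribosomal protein genes, among the brightest on the array, ran from -0.21 to 0.14 with a median of -0.02, and the 30 constitutive proteasome subunits from -0.15 to 0.13. Complex I (41 genes) had a median of 0.04, complexes III and IV (25) -0.05 and ATP synthase (16) 0.04. Ribosome biogenesis genes and MYC had 30 positive ratios among 36, with a median of 0.15 and no member at 2-fold, and the largest were WDR75 at 0.55 and NOP2 at 0.42. Mitochondrial ribosomal proteins had 54 positive ratios among 75 and a median of 0.08. The 365 measured zinc finger genes with a ZNF symbol had 229 positive ratios and a median of 0.08, with 1 rise. LINC-named noncoding RNAs (150) had 103 positive and a median of 0.07, with 1 fall. Of all measured genes 52.7% were positive, 0.398% rose and 0.421% fell.

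Genes 1.5-fold or more lower made up a larger share of long genes than of short ones. The measured genes with a known span, 12803 of them, were split into 5 equal groups by the distance from start to end in the reference annotation. In the group of the longest genes, over 84.7 kb, 5.27% were 1.5-fold or more lower and 1.56% 1.5-fold or more higher, while in the other groups between 0.94% and 1.797% were lower and between 1.02% and 2.77% higher. The longest genes held 22 of the 54 falls and 1 of the 51 rises, and their median was -0.06 against 0.04 in the shortest. DOCK4, NRG1, NRCAM and NRP2 are among them, as are 6 of the 7 measured DOCK genes and 11 of the 20 collagens, whose median was -0.78 against 0.00 in the other 9. Not every list divided this way, with medians in the longest group and in the rest of -0.03 and -0.34 for laminins, -0.19 and -0.30 for G2/M genes and 0.05 and -0.02 for neural adhesion molecules. In the CL1-0 pair, which shares no array with this one, the longest genes had 12.01% 1.5-fold or more higher with the PSAT1 vector and 4.15% lower, and the other groups between 5.995% and 8.14% higher and between 3.47% and 4.57% lower. Span also goes with gene class and probe placement, and their part in the result was not tested.

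**Figure D5:**
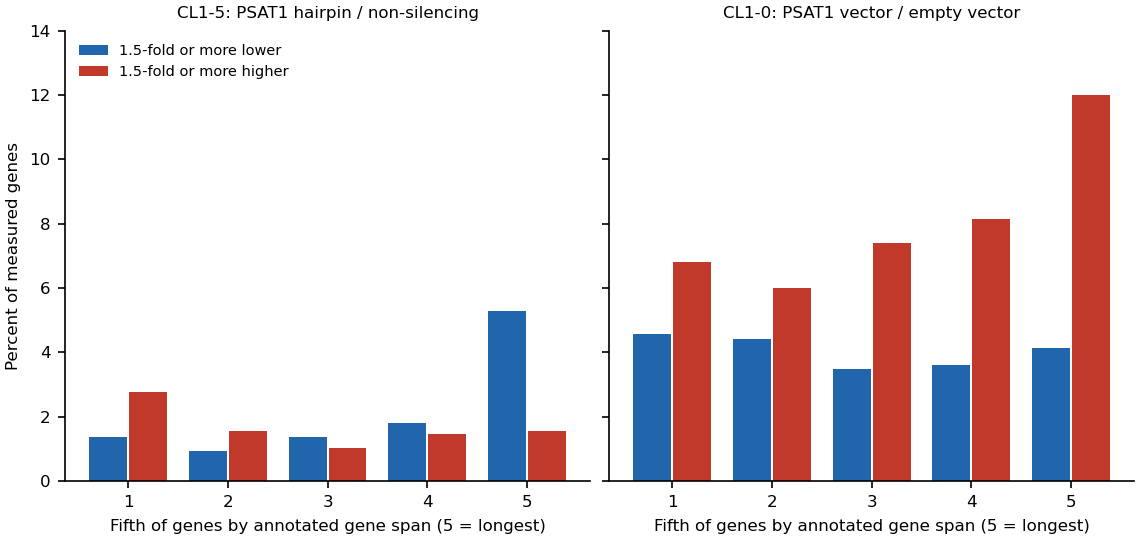
Percent of measured genes that were 1.5-fold or more lower (blue) or higher (red), vertical axis, by 5 equal groups of gene span from shortest to longest, horizontal axis, in the CL1-5 pair (left) and the CL1-0 pair (right). In CL1-5 the lower share is 5.27% in the longest genes and at most 1.797% elsewhere, and in CL1-0 the higher share is 12.01% in the longest genes and at most 8.14% elsewhere.

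The medians of the lists were set beside those of the CL1-0 pair, where the PSAT1 vector was compared with the empty vector on other arrays. Of 89 lists with a median in both pairs, 56 had medians of opposite sign. Many of these signs carry little, since 66 of the CL1-5 medians were within 0.1 of 0 and some lists share members. Medians over all measured genes were 0.02 in CL1-5 and -0.01 in CL1-0. In CL1-5 and CL1-0 the medians were 0.24 and -0.15 for G1/S genes, -0.29 and 0.26 for G2/M genes, 0.23 and -0.57 for replication-dependent histones, 0.15 and -0.36 for ribosome biogenesis, 0.89 and -1.23 for type I interferon genes and -0.45 and 0.70 for DOCK genes. The measured members of a list can differ between the pairs, with 37 and 28 interferon genes and 7 and 9 DOCK genes. With the probe set mean the DOCK median in CL1-5 was -0.04. The metallothioneins had 0.03 and 0.66 and the ATF4 genes -0.09 and 0.64, where the value in CL1-5 was the one near 0. Collagens had -0.14 and 0.12, MAPK feedback genes -0.25 and 0.08, and the TCEAL and BEX genes 0.42 and -0.02. Of the 54 genes lower in CL1-5, 27 were not measured in CL1-0, and of the 51 higher genes 16 were not. The share over all measured genes was not taken, so whether these counts are unusual was not tested. With 1 array per group, differences between the pairs have no test.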

How the data were processed

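Biotin-labelled cRNA was hybridised to 1 one-colour expression array per group. The deposited table gives each probe set's intensity on a linear scale, made by the authors with MAS5, per the submitters' processing notes. The MAS5 version and scaling target are not given in the sources used here. Detection calls were not used. From these, 62 control probe sets were dropped, signals were set to a floor of 49.0 (the 50th percentile of the other probe sets on the 4 arrays) and log2 was taken. The platform annotation gave 1 gene symbol to 41097 of 54675 probe sets, several to 1801 and none to 11777, and a RefSeq table (GRCh38.p14) updated or matched 41043. No gene was named from a probe set with several symbols, and 63 of Y-linked and X inactivation genes were left out. A gene was represented by the probe set with the highest mean log2 signal over the 4 arrays.

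The call was a size of 2-fold between 2 arrays. With 1 array per group there was no test, p-value or standard error, and the number of arrays limits the precision. Probe sets of 1 gene differed in log2 ratio with an SD of 0.18. Lists were described by counts, signs and medians (3 or more measured members) beside the same over all measured genes. The lists held 3813 distinct genes, 112 of them without a named probe set here. The members, lists and rule for named genes were chosen with earlier results of these data known. That rule took PSAT1, the genes at 2-fold whose probe sets do not disagree in sign, up to 8 members per list with the largest ratios and those going against the list, and 3 genes on each side of 2-fold. The split by gene span, the motif search and the genes of the paired plot were chosen after values were seen. Python 3.11.15, numpy 2.4.6, pandas 2.3.3 and matplotlib 3.10.9 were used, and the calls were tested on simulated data. The alternatives were quantile normalization, median centring, floors at the 25th and 65th percentiles, the mean over probe sets, no multi-transcript probe sets, and the floor and probe set taken from the CL1-5 arrays.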

Additional observations from a re-analysis of the deposited data

How the results depend on the processing

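No paired analysis was possible because each group has 1 array. Under the 7 alternatives no called gene changed direction. Of the 105 genes at 2-fold, 104 stayed past it under quantile normalization, 98 under median centring, 102 with a floor at the 25th percentile and 76 with one at the 65th. The count was 104 with the floor and probe set from the CL1-5 arrays and 68 when probe sets were averaged. Without multi-transcript probe sets 74 stayed and 31, PSAT1 among them, had no measured probe set left. In all 7 alternatives 35 genes stayed, 20 higher and 15 lower. The count of lower genes was 32 with the mean over probe sets. The median of the interferon list was 0.68 with the mean over probe sets and 1.12 without multi-transcript probe sets. That of HLA genes was 0.29 with the floor at the 25th percentile and 0.31 without multi-transcript probe sets. That of collagens was -0.41 with the floor at the 65th percentile, and that of laminins -0.83 without multi-transcript probe sets. Of 621 recomputed list medians 88 changed sign, and 0 of those had a size of 0.1 or more as reported. The median of all genes ran from 0.00 to 0.05. Outside the settings named, the other medians of the lists in the plot of list medians moved by less than 0.18, the SD between probe sets of a gene, apart from those of the PARP family (0.14) and the DOCK genes (-0.04) with the mean over probe sets and of semaphorins, plexins and neuropilins (-0.28) with the floor at the 65th percentile. Near the floor a ratio is a bound or is compressed. Of the lists outside that plot, the medians of integrins (-0.33) and insulin-like growth factor binding proteins (-0.33) moved by more with the floor at the 65th percentile, and that of immune and endothelial markers (-0.15) without multi-transcript probe sets.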

Other observations

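Transcripts encoded by the mitochondrial genome belong to none of the lists and were chosen after their values were seen. All 7 measured ones had positive ratios, against 52.7% of all measured genes, and their median log2 ratio was 0.70. They ran from 0.41 for the mitochondrially encoded COX2 (16508 against 12454) to 0.77 for ND4 (10366 against 6092), with COX1 at 0.70, COX3 at 0.74, ATP6 at 0.64, ND2 at 0.54 and ND6 at 0.74, and none reached 2-fold. The nuclear genes of complex I had a median of 0.04 and those of ATP synthase 0.04. In CL1-0 the same transcripts had a median of -0.09.

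Neighbouring genes were read in 844 blocks of 15 consecutive measured genes, with values seen before blocks were named. The median log2 ratio was -0.25 or lower in 8 blocks and 0.25 or higher in 5. The lowest, -0.363, was that of the block from THUMPD3 to CRELD1 on chromosome 3, with 9 negative and 6 positive ratios. The block from DLD to TES on chromosome 7 had a median of -0.36 with 14 of 15 ratios negative, and it holds LAMB1 (-1.15), NRCAM (-1.77), DOCK4 (-3.04), SAMTOR (-0.83) and PNPLA8 (-0.42). The next block, from CAV2 to ZNF800, had a median of -0.27, with the caveolins CAV1 at -0.90 (665 against 1243) and CAV2 at -0.65. The block from PLGRKT to SNAPC3 on chromosome 9 had 15 of 15 negative ratios and a median of -0.28, with GLDC at -0.62, KDM4C at -0.57 and NFIB at -0.51. On chromosome 6 the block from CDC40 to LAMA4 holds CDK19 (-1.24), SLC60A2 (-0.83), CDC40 (-0.79) and FYN (-0.74). Chromosome 18 as a whole had 113 negative ratios among 169 genes, against 46.3% of all measured genes, and a median of -0.10. On the positive side, the block from MRPL3 to MSL2 on chromosome 3 had 14 of 15 positive ratios and a median of 0.28, with AMOTL2 at 0.55 and SRPRB at 0.53, and the block with the IFIT genes on chromosome 10 had 8 positive and 7 negative ratios and a median of 0.40, which is the floored ratio of ANKRD1 (44.7 and 64.7 without and with the hairpin, the former under the floor).

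A few single genes under 2-fold lay apart from their families and are given as values. IGFBP6 read 164 without and 314 with the PSAT1 hairpin, while IGFBP7 and IGFBP4 had ratios of -0.42 and -0.33. The annexins ANXA1 and ANXA3 had ratios of -0.87 and 0.88. Among nuclear receptors VDR had 0.75 and PPARG -0.63. The cilium transport genes IFT80 and WDR35 had -0.77 and -0.66. Their list of 48 measured genes had 30 negative ratios, against 46.3% of all measured genes, and a median of -0.04. Of the 4002 measured probe sets with no gene name, 7 were higher and 10 lower.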
